A study of Mus musculus with 5 samples.

Results

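The integrated stress response was examined in hematopoietic stem cells (HSCs) from mice with or without the RNA-binding protein SYNCRIP, through 36 genes of the ATF4 and CHOP programme. They were given as a list of symbols, and all 36 were found among the 24046 genes of the expression table. Of these, 34 had normalized read counts of at least 10 in at least 2 of the 5 libraries and were tested, while Stc2 and Aldh1l2 were not. All mice were lethally irradiated CD45.1 congenic recipients of CD45.2 whole bone marrow homozygous for floxed Syncrip. The marrow either lacked the Mx1-Cre transgene (Syncrip flox/flox, Mx1 Cre-, here WT, 3 libraries named WT 1, WT 2 and WT 3) or carried it (Syncrip flox/flox, Mx1 Cre+, here KO, 2 libraries named KO 2 and KO 3). Polyinosinic:polycytidylic acid (pIpC), which induces interferon and thereby the Mx1 promoter, was given to both groups, so WT also saw the interferon stimulus but no Cre, and Cre expression and Syncrip loss cannot be told apart. Cells were taken at week 9 after the transplant, which was week 3 after pIpC, by sorting the CD45.2+, Lin-, Sca1+, cKit+, CD150+, CD48- fraction, and were sequenced in bulk from a low-input SMART-Seq v4 preparation. The labels do not say that each library came from a separate mouse, so p-values measure only the spread between these libraries.

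In the integrated stress response, 4 kinases sense different stresses (heme shortage, double-stranded RNA, unfolded protein in the endoplasmic reticulum, and uncharged tRNA) and phosphorylate the alpha subunit of the initiation factor eIF2. General translation then slows, while the mRNA of the transcription factor ATF4 is translated more. ATF4 and its partners, among them CHOP (encoded by Ddit3), switch on genes for amino acid synthesis and import, redox balance and the recovery of translation. ATF4 and the kinases are controlled largely at the level of translation and phosphorylation, whereas the levels given here are those of mRNA. In blood stem cells the pathway is known for setting the choice between survival and death under stress.

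ATF4 and its C/EBP partners bind a composite site, the C/EBP-ATF response element, whose core was searched as TGATGNAA on either strand (TTNCATCA on the reverse). The windows searched ran from 250 bases before to 50 bases after the transcription start in RefSeq promoters (GRCm38.p6), which were matched for 32 of the 36 genes; Eif4ebp1, Aldh1l2, Cth and Slc7a5 had none. The core was found in 8 of 32 genes (25%), against 3.97% of 32851 promoters of the same length and 4.51% of 27025 genes. The matches are shown because this element is the one through which ATF4 is known to act on several of these genes. Each is given 5′ to 3′ on the strand of its gene with 10 bases on either side and the core in capitals, all of it genomic sequence at or near the transcription start.
Asns, chr6:7693215-7693242, minus strand: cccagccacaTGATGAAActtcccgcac
Atf3, chr1:191183426-191183453, minus strand: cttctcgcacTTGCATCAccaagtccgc
Chac1, chr2:119351039-119351066, plus strand: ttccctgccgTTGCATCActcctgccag
Nupr1, chr7:126625563-126625590, minus strand: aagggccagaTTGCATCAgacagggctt
Pycr1, chr11:120643834-120643861, minus strand: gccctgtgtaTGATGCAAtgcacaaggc
Slc7a11, chr3:50443662-50443689, minus strand: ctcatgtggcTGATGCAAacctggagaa
Slc7a11, chr3:50443643-50443670, minus strand: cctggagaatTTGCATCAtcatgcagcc
Trib3, chr2:152344029-152344056, minus strand: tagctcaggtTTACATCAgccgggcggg
Vldlr, chr19:27216810-27216837, plus strand: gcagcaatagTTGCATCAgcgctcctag
The core lay upstream of the start in 7 of these genes, from 23 bases before it in Asns to 200 bases before it in Vldlr, and 14 bases after the start in Trib3. Slc7a11, the cystine importer, held it in both orientations within 1 window. The cyclic AMP response element, searched as TGACGTCA, was found in Ppp1r15a alone (3.125% of the matched genes, against 2.03% of all genes and 1.79% of all promoters). The ER stress response element was searched as its CCAAT and CCACG parts 9 bases apart, and was found in 0 of 32 genes, against 0.137% of all genes and 0.119% of all promoters. A match is a string of letters and was not taken as a bound site, and the lack of a match covers these windows only.

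The libraries held 12539599 (KO 3) to 22779536 (WT 3) reads, and both KO libraries were shallower than WT. KO 3 stood farthest from the rest, with a chi-square per degree of freedom of 169 to 236 against the WT libraries, where KO 2 had 66.4 to 88.1 and WT pairs 34.1 to 56.3. Syncrip, the deleted gene, was measured first as a check of the labels. It had normalized read counts of 1944 (WT 1), 1439.8 (WT 2), 1794 (WT 3), 294 (KO 2) and 343 (KO 3), with a log2 fold change of -2.43 ± 0.22 (SE, adjusted p = 0.0352, limma), and it was the only gene of 13661 called by limma (0.00732%). All 12 HSC markers had reads in every library and together took 0.101% to 0.220% of reads. The 10 neutrophil and myeloid markers took 6.16% to 7.44% in WT, 5.46% in KO 2 and 2.64% in KO 3, and the 12 adipocyte markers took 0.110% in KO 2 against 0.00121% to 0.00416% elsewhere. The part of these shifts in the results below was not tested, and in bulk samples fewer cells of a type and less RNA per cell cannot be told apart.

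Across the 34 tested genes, DESeq2 called 7 higher in KO (9.02% of all genes), among them serine and proline enzymes (Phgdh, Shmt2 and Pycr1), Atf5, Sesn2 and Eif4ebp1, and 4 lower (9.25% of all genes), among them 2 eIF2 kinases and eIF2 alpha itself. limma, the main test, called none of them. The median log2 fold change, on the log2(normalized count + 1) scale used throughout, was 0.27 over the 34 genes and 0.02 over all genes tested. It was 0.33 for KO 2 alone and 0.29 for KO 3 alone against the WT mean, whereas single WT libraries lay at 0.02, 0.05 and -0.06 against the other WT libraries. Both KO values exceeded all WT values in 16 of 34 genes (47.1%), against 23.9% of all genes, and lay below all WT values in 6 (17.6%), against 23.2%. The 16 include Cbs, which passed the filter on low values through its KO libraries alone, and Gdf15, which needed them to pass. With the minimum raised to 50, which dropped both, 14 of 30 genes lay above all WT values, against 24.9% of all genes. With a trend on length and GC content removed, 11 of 34 lay above (17.2% of all genes) and 3 below (18.6%). Without the 4 kinases and Eif2s1, which act upstream of ATF4, 16 of 29 genes (55.2%, Cbs and Gdf15 included) lay above all WT values and 3 below, with a median log2 fold change of 0.41. The 36 genes together took 0.265%, 0.259% and 0.251% of reads in WT 1, WT 2 and WT 3, and 0.293% and 0.315% in KO 2 and KO 3. Highly expressed genes weigh most in this share. The mean normalized read count of Shmt2 was 4212 in WT and 7709 in KO, and that of Phgdh 3126 and 5964. Asns was among those that went the other way, with 4340 and 2967.

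**Figure D1:**
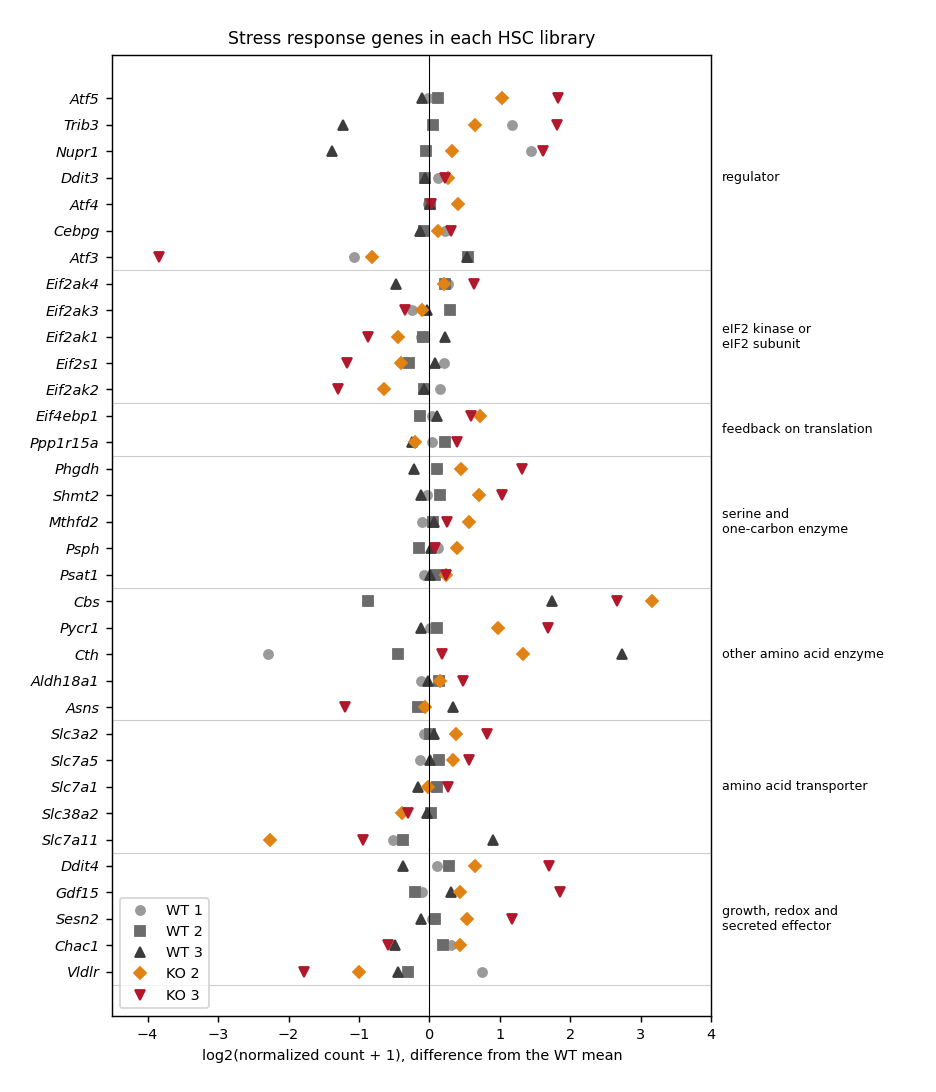
Each row is a tested gene, grouped by role and ordered within a role by its fold change, and each symbol is a library. The horizontal axis is log2(normalized count + 1) minus the WT mean of that gene. The group of eIF2 kinases and Eif2s1 sits mostly to the left of 0 in KO, at a median of -0.66, with Eif2ak4 to the right. The serine and folate enzymes sit to the right, with a median of 0.41.

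The test of these differences was limma on all 13661 genes with Benjamini-Hochberg adjustment. limma called 0 of the 34 genes at an adjusted p under 0.05, the lowest adjusted p being 0.0815, while 14 had an unadjusted p under 0.05 (9 higher and 5 lower in KO), against 27.8% of all genes. On reads recovered from the table, the quasi-likelihood test of edgeR also called 0 of 34 (0.0146% of all genes), with a lowest adjusted p of 0.0926 for these genes. DESeq2 on the same reads gave 30 of them an adjusted p and called 11. It called 7 higher in KO (Atf5, Sesn2, Phgdh, Shmt2, Slc3a2, Eif4ebp1 and Pycr1), where 9.02% of all genes were called higher, and 4 lower (Eif2ak1, Eif2ak2, Eif2s1 and Vldlr), where 9.25% were called lower. With KO 2 left out, limma called 12 of the 32 genes then tested, against 26.6% of all genes, with KO 3 as the lone KO library, whose spread was assumed to equal that of WT. KO 3 alone lay above all WT values in 21 of these 32 genes, against 40.1% of all genes, and below in 10, against 38.8%.

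Of the 7 regulators, Atf5 was the one that DESeq2 called, and Atf3 was given no adjusted p by it. Atf4 (chr15:80255184-80257541, plus strand, GENCODE M21 on GRCm38) encodes the central activator of the response. Libraries gave normalized read counts of 2568 (WT 1), 2615 (WT 2), 2630.0 (WT 3), 3464 (KO 2) and 2649 (KO 3), and its log2 fold change was 0.22 ± 0.18 (SE, adjusted p = 0.452, limma). KO 3 exceeded the highest WT library by less than the WT SD of 32.2, so the groups separated only narrowly, while KO 2 stood clear of them. With the length and GC trend removed, the log2 fold change of Atf4 changed sign, to -0.18. Ddit3 encodes CHOP, a pro-death partner of ATF4, and carried 2 overlapping gene records on chr10:127290774-127296288. The normalized read counts were 351 (WT 1), 309 (WT 2), 309 (WT 3), 385 (KO 2) and 375 (KO 3). The groups did not overlap, and the log2 fold change was 0.24 ± 0.25 (SE, adjusted p = 0.552, limma). Mars, a methionyl-tRNA synthetase gene with a mean of 3882, overlaps Ddit3 on the opposite strand.

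Atf5 (chr7:44812256-44816658, minus strand), a paralog of Atf4 tied to the mitochondrial stress response, had normalized read counts of 91.6 (WT 1), 101 (WT 2), 86.6 (WT 3), 191 (KO 2) and 331 (KO 3). Both KO libraries lay above every WT library, KO 3 farther than KO 2, and the linear fold of the means was 2.81. Its log2 fold change was 1.43 ± 0.38 (SE, adjusted p = 0.0842, limma), and DESeq2 gave an adjusted p of 0.00672. Nup62, a nuclear pore gene on the opposite strand with a mean of 5891, overlaps Atf5, and whether reads were counted by strand is not given in the sources used here.

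Cebpg encodes a C/EBP protein that pairs with ATF4. Normalized read counts were 1169.7 (WT 1), 953 (WT 2), 913 (WT 3), 1089 (KO 2) and 1244 (KO 3), so KO 2 lay within the WT range (log2 fold change 0.21 ± 0.21 SE, adjusted p = 0.524, limma). Trib3, a pseudokinase that feeds back on ATF4 and CHOP, had normalized read counts of 117 (WT 1), 52.9 (WT 2), 21.4 (WT 3), 81.2 (KO 2) and 182 (KO 3). Nupr1, a small stress-induced chromatin protein, had normalized read counts of 311 (WT 1), 109 (WT 2), 42.8 (WT 3), 142 (KO 2) and 348 (KO 3). Both genes spread widely within WT, where the highest library was 5.48 times the lowest for Trib3 and 7.25 times for Nupr1. In both, WT 1 exceeded KO 2, and the log2 fold changes were 1.23 ± 0.72 (SE, adjusted p = 0.291, limma) and 0.96 ± 0.76 (SE, adjusted p = 0.429, limma). The summed HSC markers lay in the same order within WT, 0.166% of reads in WT 1, 0.139% in WT 2 and 0.101% in WT 3. They took 0.117% in KO 2 and 0.220% in KO 3, which was also the highest library for both genes, and their part in the values of Trib3 and Nupr1 was not tested.

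Atf3, an early repressor and activator downstream of ATF4, was near the limit of detection. It had normalized read counts of 5.83 (WT 1), 19.96 (WT 2), 19.7 (WT 3), 7.2 (KO 2) and 0 (KO 3), and its log2 fold change was -2.33 ± 1.28 (SE, adjusted p = 0.265, limma). The largest value rested on 23 reads, and 0 reads in KO 3 allow up to 3. KO 2 lay within the WT range, so Atf3 did not separate the groups.

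**Figure D2:**
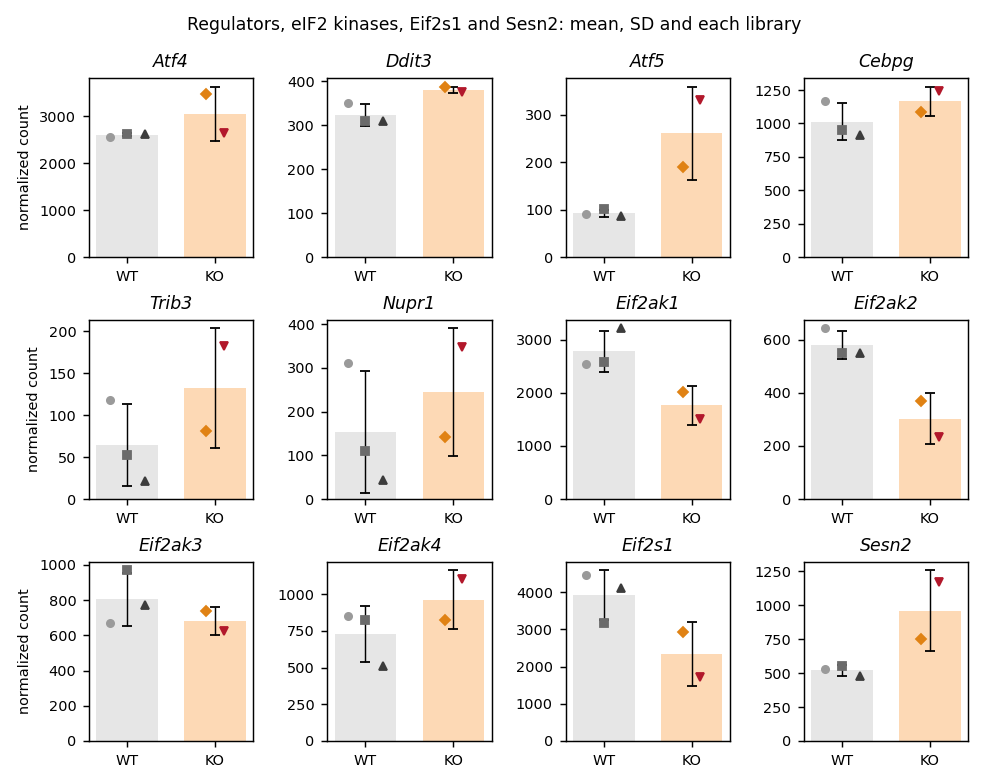
Bars are the mean normalized read count of WT (n = 3) and KO (n = 2) libraries, error bars are SD, and points are single libraries, with axes from 0. Atf5 and Sesn2 lie higher in both KO libraries than in any WT library, Eif2ak1, Eif2ak2 and Eif2s1 lower, and the Trib3 and Nupr1 points of WT 1 lie above KO 2.

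Among the sensors of the response, the genes of the RNA and heme kinases had lower levels in KO by DESeq2. Eif2ak2 encodes PKR, the kinase activated by double-stranded RNA and induced by interferon. Libraries gave normalized read counts of 643 (WT 1), 549 (WT 2), 550.2 (WT 3), 370.1 (KO 2) and 235 (KO 3), with no overlap between the groups and a log2 fold change of -0.97 ± 0.27 (SE, adjusted p = 0.0893, limma). Eif2ak1 encodes HRI, the heme-regulated kinase that also relays mitochondrial stress, and its counts were 2538 (WT 1), 2586 (WT 2), 3214 (WT 3), 2024 (KO 2) and 1508 (KO 3). Both KO libraries again lay below every WT library, with a log2 fold change of -0.66 ± 0.21 (SE, adjusted p = 0.1005, limma). DESeq2 called both kinases lower, with adjusted p values of 0.0200 for Eif2ak2 and 0.0347 for Eif2ak1. Aimp2, with a mean of 1649, overlaps Eif2ak1 on the opposite strand.

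The genes of PERK and GCN2 overlapped between the groups. Eif2ak3, which encodes the ER stress kinase PERK, had normalized read counts of 671 (WT 1), 969 (WT 2), 772 (WT 3), 740.1 (KO 2) and 627 (KO 3), and a log2 fold change of -0.22 ± 0.24 (SE, adjusted p = 0.558, limma). Eif2ak4, which encodes the amino acid sensor GCN2, had normalized read counts of 852 (WT 1), 823 (WT 2), 508 (WT 3), 821 (KO 2) and 1104 (KO 3), with KO 2 inside the WT range and a log2 fold change of 0.43 ± 0.28 (SE, adjusted p = 0.351, limma). Eif2s1, which encodes the eIF2 alpha subunit that all 4 kinases phosphorylate, had normalized read counts of 4468 (WT 1), 3172 (WT 2), 4106 (WT 3), 2934 (KO 2) and 1725 (KO 3). Both KO libraries lay below every WT library, KO 2 only a little, and the log2 fold change was -0.78 ± 0.26 (SE, adjusted p = 0.109, limma), with a DESeq2 adjusted p of 0.0487. Over these 5 upstream genes the median log2 fold change was -0.66, with 0 above all WT values (23.9% of all genes) and 3 below (23.2%). With the length and GC trend removed, the median was -0.33 and 2 lay below.

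The feedback genes that reset translation differed from each other. Eif4ebp1 encodes the cap-binding inhibitor 4E-BP1, a target of ATF4. The normalized read counts were 2238 (WT 1), 1987 (WT 2), 2359 (WT 3), 3586 (KO 2) and 3303 (KO 3), which set both KO libraries well apart from WT (log2 fold change 0.65 ± 0.17 SE, adjusted p = 0.0842, limma; DESeq2 adjusted p = 0.00828). Ppp1r15a encodes GADD34, which directs the phosphatase that reverses eIF2 alpha phosphorylation, and its counts were 879 (WT 1), 1003 (WT 2), 724 (WT 3), 745 (KO 2) and 1127 (KO 3). KO 2 lay near the low end of WT and KO 3 above all WT libraries, so that the log2 fold change was 0.09 ± 0.25 (SE, adjusted p = 0.837, limma) and the groups overlapped.

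The enzymes that make serine and feed mitochondrial folate metabolism had the most uniform pattern, with 4 of 5 tested genes above all WT values (23.9% of all genes) and 0 below (23.2%). With the length and GC trend removed, 3 lay above (17.2% of all genes) and 0 below (18.6%), and their median went from 0.41 to 0.35. Shmt2, the mitochondrial serine hydroxymethyltransferase, had normalized read counts of 4114 (WT 1), 4649 (WT 2), 3872 (WT 3), 6839.9 (KO 2) and 8578 (KO 3). Its log2 fold change was 0.87 ± 0.18 (SE, adjusted p = 0.0815, limma), and the DESeq2 adjusted p was 0.000809, the lowest of any of the 3 tools among the 34 genes. Phgdh, which starts serine synthesis from glycolysis, had normalized read counts of 3359 (WT 1), 3347 (WT 2), 2671 (WT 3), 4231 (KO 2) and 7697 (KO 3). KO 3 carried most of its log2 fold change of 0.88 ± 0.26 (SE, adjusted p = 0.0941, limma), although KO 2 also lay above every WT library (DESeq2 adjusted p = 0.0137).

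Psat1 and Mthfd2 showed smaller differences. Psat1, the transaminase after Phgdh, had normalized read counts of 2081 (WT 1), 2310.3 (WT 2), 2198 (WT 3), 2581 (KO 2) and 2571 (KO 3), and Mthfd2, the mitochondrial folate dehydrogenase, counts of 963 (WT 1), 1068 (WT 2), 1083 (WT 3), 1537 (KO 2) and 1233 (KO 3). Neither gene's groups overlapped, with log2 fold changes of 0.23 ± 0.17 (SE, adjusted p = 0.383, limma) and 0.41 ± 0.20 (SE, adjusted p = 0.211, limma). Psph, the phosphatase that completes serine synthesis, ranged from 619 to 747 in WT and was 722.9 and 900.5 in KO 3 and KO 2, which overlapped. Psph lies across from Cct6a, whose mean was 7456. Aldh1l2, a mitochondrial folate enzyme, had at most 1 read in any library.

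Of the other amino acid enzymes, DESeq2 called Pycr1 alone. Pycr1, which makes proline in mitochondria, had normalized read counts of 50.8 (WT 1), 54.7 (WT 2), 46.3 (WT 3), 99.7 (KO 2) and 164 (KO 3), so both KO libraries lay above every WT library (log2 fold change 1.32 ± 0.44 SE, adjusted p = 0.112, limma; DESeq2 adjusted p = 0.0402). Aldh18a1, which acts earlier in the same pathway, had normalized read counts of 3253 (WT 1), 3865 (WT 2), 3494 (WT 3), 3912 (KO 2) and 4887 (KO 3) and a log2 fold change of 0.31 ± 0.18 (SE, adjusted p = 0.289, limma). KO 2 exceeded the highest WT library by little.

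Asns, the asparagine synthetase often used as a readout of ATF4, was not higher in KO. It was the gene of the list with the highest WT level per length, 2153 normalized counts per kb. WT ranged from 3777 to 5414, KO 2 was 4079 and KO 3 was 1856, so KO 2 lay within WT and KO 3 far below it. The log2 fold change was -0.64 ± 0.32 (SE, adjusted p = 0.233, limma).

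The transsulfuration enzymes were hardly expressed. Cbs, which makes cystathionine, had normalized read counts of 0 (WT 1), 0 (WT 2), 5.14 (WT 3), 15.4 (KO 2) and 10.6 (KO 3), with 15 reads at most in any library. It passed the filter through KO alone, where it is higher, and had a log2 fold change of 2.92 ± 1.46 (SE, adjusted p = 0.226, limma), or 0.996 with a pseudocount of 10. Cth, which cleaves cystathionine, lay between 0 and 31.7, and its mean was 11.4 in WT and 7.93 in KO, lower in KO although the log2 fold change was 0.75 in limma. DESeq2 gave -0.52.

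Of the 5 amino acid transporters, the SLC7A5 and SLC3A2 pair that forms the large neutral amino acid exchanger lay above WT, and the glutamine and cystine carriers below. With the length and GC trend removed, Slc7a5 (-0.02), Slc7a1 (-0.01) and Slc38a2 (0.01) changed sign, and the median of the 5 went from 0.12 to -0.01. Slc3a2, the shared heavy chain, had normalized read counts of 2847 (WT 1), 3013 (WT 2), 3139 (WT 3), 3882 (KO 2) and 5282 (KO 3) and a log2 fold change of 0.59 ± 0.19 (SE, adjusted p = 0.102, limma), with a DESeq2 adjusted p of 0.0286. Slc7a5, the light chain, had normalized read counts of 3536 (WT 1), 4258 (WT 2), 3891 (WT 3), 4900.2 (KO 2) and 5732 (KO 3) and a log2 fold change of 0.45 ± 0.17 (SE, adjusted p = 0.143, limma). Neither gene's groups overlapped, and KO 3 was the higher KO library in each.

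Slc38a2, a carrier of glutamine and other neutral amino acids, had normalized read counts of 4712 (WT 1), 4757 (WT 2), 4533 (WT 3), 3572 (KO 2) and 3792 (KO 3), with both KO libraries below every WT library and a log2 fold change of -0.34 ± 0.16 (SE, adjusted p = 0.196, limma). Slc7a11, which imports cystine for glutathione synthesis through the same heavy chain, had normalized read counts of 57.4 (WT 1), 63.4 (WT 2), 156 (WT 3), 16.4 (KO 2) and 42.5 (KO 3). Its groups were apart but WT 3 stood well above the other WT libraries, and the log2 fold change was -1.61 ± 0.65 (SE, adjusted p = 0.156, limma). Slc7a1, the carrier of cationic amino acids, ranged from 782 to 939.9 in WT, where KO 2 also lay at 859 while KO 3 was 1054.

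Among the effectors, Sesn2 encodes a leucine-binding inhibitor of mTORC1. Sesn2 (chr4:132492032-132510501, minus strand) had normalized read counts of 533 (WT 1), 549 (WT 2), 476 (WT 3), 748 (KO 2) and 1169 (KO 3). Its log2 fold change was 0.85 ± 0.25 (SE, adjusted p = 0.0941, limma), and the DESeq2 adjusted p was 0.0179. Ddit4, which encodes REDD1, another brake on mTORC1, had normalized read counts of 107 (WT 1), 121 (WT 2), 76.3 (WT 3), 156 (KO 2) and 325 (KO 3) and a log2 fold change of 1.17 ± 0.43 (SE, adjusted p = 0.129, limma). DESeq2 placed it just short of its threshold, with an adjusted p of 0.0503. In both genes the KO libraries lay above every WT library, and KO 3 was the higher of the pair.

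Vldlr, a lipoprotein receptor induced by ATF4 in other tissues, had normalized read counts of 292 (WT 1), 141 (WT 2), 128 (WT 3), 86.3 (KO 2) and 50.1 (KO 3). Both KO libraries lay below every WT library, WT 1 stood above the other WT libraries, and the log2 fold change was -1.39 ± 0.48 (SE, adjusted p = 0.118, limma), with a DESeq2 adjusted p of 0.0475. The secreted proteins were scarce. Gdf15, a stress cytokine, had normalized read counts of 7.49 (WT 1), 6.94 (WT 2), 10.3 (WT 3), 11.3 (KO 2) and 31.9 (KO 3), with a log2 fold change of 1.14 ± 0.89 (SE, adjusted p = 0.4204, limma) and KO 2 close to WT 3. Stc2, a secreted glycoprotein, was not tested, with normalized read counts of 0.833 (WT 1), 0.868 (WT 2), 8.57 (WT 3), 9.25 (KO 2) and 18.2 (KO 3) from at most 12 reads. Chac1, which degrades glutathione, ranged from 63.4 to 111 in WT and was 121 in KO 2 and 59.2 in KO 3, so that the KO libraries lay on opposite sides of WT.

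**Figure D3:**
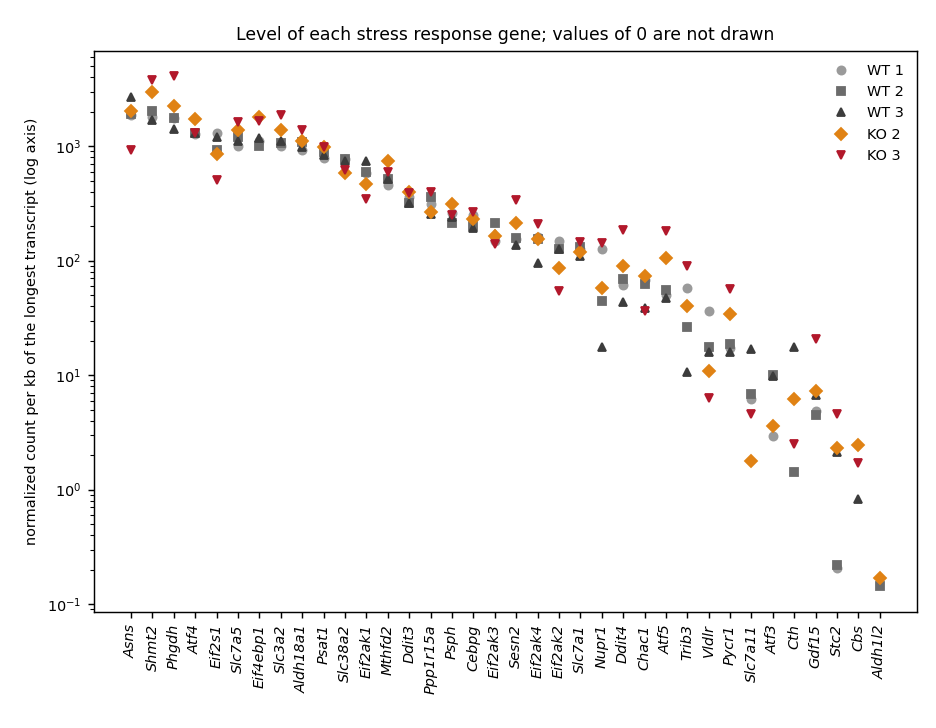
The vertical axis is the normalized read count per kb of the longest annotated transcript, on a log axis, for each gene ordered by its WT mean, and each symbol is a library. Levels run from Asns, Shmt2 and Phgdh with WT means of 2153, 1840 and 1651 per kb down to genes at or near 0, such as Cbs with 0.275 per kb and Aldh1l2 with 0.0480.

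Compared per length, the genes spanned the expressed range. The WT mean was 1290 ± 15.9 normalized counts per kb (SD, n = 3) for Atf4, at the 91.3rd percentile of tested genes, and 333 ± 25.4 for Ddit3, at the 65.7th. Atf5 lay at 51.2 per kb (28.2nd percentile), Trib3 at 31.5 and Atf3 at 7.64 (9.04th percentile).

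Most of the genes that lay above all WT values held no C/EBP-ATF core near the start. Of the 8 with the core, 1 (Pycr1) lay above all WT values and 2 (Slc7a11 and Vldlr) below, beside 23.9% and 23.2% of all genes. Their median log2 fold change was -0.36, and 5 of 8 were under 0. Of the 23 tested genes with a window and no match, 13 lay above and 4 below, with a median of 0.24. The 13 include Cbs and Gdf15, which needed their KO libraries to pass the filter on low values. The 23 include the 4 kinases and Eif2s1, which act upstream of ATF4. Several of the 8 were among the genes with few reads or wide WT spread (Atf3, Nupr1, Trib3 and Slc7a11), and the difference between the 2 sets was not tested.

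Base composition ran with the direction of the differences, across all genes as well as in this list. Over 10 equal bins of transcript GC content, all genes had median log2 fold changes from -0.76 in the lowest bin (median GC 39.8%) to 0.73 in the highest (median GC 59.9%). The 16 stress genes above all WT values had a median GC content of 54.6%, the 6 below 43.8% and all genes tested 49.9%. Set against the quartiles of their own GC bin, 16 stress genes lay above the upper quartile, 8 below the lower quartile and 10 between.

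The fold changes of single genes moved by unequal amounts once a linear trend on transcript length and GC content had been removed from each library. The median log2 fold change of the 34 genes was then 0.30, with -0.02 for all genes, and 11 lay above all WT values (17.2% of all genes) and 3 below (18.6%). limma called 0 of 34, with a lowest adjusted p of 0.143. Eif4ebp1 went from 0.65 to 0.79 and Pycr1 from 1.32 to 1.04, and Ddit3 and Cebpg, at 45.6% and 43.3% GC, went from 0.24 to 0.59 and from 0.21 to 0.67. Of the other genes that DESeq2 had called higher, Atf5 went from 1.43 to 0.59, Shmt2 from 0.87 to 0.33, Phgdh from 0.88 to 0.36, Sesn2 from 0.85 to 0.21 and Slc3a2 from 0.59 to 0.34. Of those it had called lower, Vldlr went from -1.39 to -0.98, Eif2s1 from -0.78 to -0.13, Eif2ak2 from -0.97 to -0.55 and Eif2ak1 from -0.66 to -0.63. Among genes that no tool called with all 5 libraries, Gdf15 went from 1.14 to 0.33, Slc7a11 from -1.61 to -0.98, Aldh18a1 from 0.31 to 0.03 and Chac1 from -0.08 to -0.61. Atf4 changed sign, from 0.22 to -0.18. Slc7a5, Slc7a1, Ppp1r15a and Slc38a2 also changed sign, to -0.02, -0.01, -0.33 and 0.01. Whether the GC trend arose in the cells or in the libraries was not tested.

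**Figure D4:**
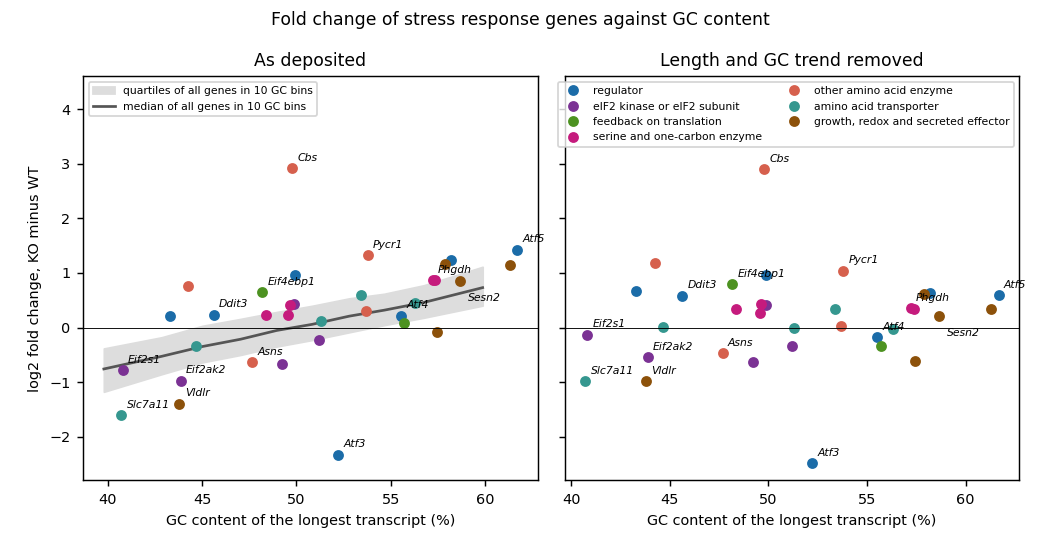
The horizontal axis is the GC content of the longest transcript and the vertical axis the log2 fold change of KO against WT for the 34 tested genes, coloured by role, as deposited on the left and after removal of that trend on length and GC on the right. On the left the grey band and line give the quartiles and median of all genes in 10 GC bins, which climb from -0.76 to 0.73, and several GC-rich stress genes such as Sesn2 lie within the band.

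Lists of neighbouring pathways, written with earlier results of these data known, were read in the same limma fit, which called 0 genes in each. Their counts stand beside the 23.9% of all genes above and 23.2% below all WT values. DESeq2 calls stand beside the 9.02% of all genes called higher and 9.25% called lower. Of 20 cytosolic aminoacyl-tRNA synthetases, many of them ATF4 targets, 5 lay above and 7 below all WT values, and their median log2 fold change was -0.10. DESeq2 called 1 of the 20 higher (Vars) and 2 lower (Dars and Rars), near those shares of all genes. Their log2 fold changes were 0.77, -0.79 and -0.66 in limma. With the length and GC trend removed, the median of the synthetases was -0.15. Of 13 further genes of the eIF2 cycle, 2 lay above and 7 below, with a median of -0.40, and DESeq2 called Eif2s3x (log2 fold change -0.85 in limma, as for the genes that follow), which encodes the gamma subunit of eIF2, and Eif5 (-0.54), its GTPase activator, lower. Removing the same trend brought the eIF2 cycle to a median of -0.12, with 0 above (17.2% of all genes after that removal) and 2 below (18.6%).

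The other ER branches of the unfolded protein response had a median below that of all genes. DESeq2 calls here too stand beside 9.02% of all genes called higher and 9.25% called lower. Of 20 genes of the ATF6 and XBP1 branches, 1 lay above and 8 below all WT values, with a median of -0.21 (-0.14 with the trend removed), and DESeq2 called the chaperones Hsp90b1 (-1.31), Canx (-0.97) and Pdia3 (-0.68) lower. Of 7 genes on the mitochondrial stress relay list, all for proteases or chaperones, 2 lay above and 4 below. Their median was -0.13 (-0.01 with the trend removed). Dele1, 1 of the 8 genes listed, was not found by symbol, so the list does not stand for the relay to HRI itself. DESeq2 called the matrix proteases Clpp (0.86) and Lonp1 (0.62) higher and the inner membrane protease Yme1l1 (-1.48) lower. Of 14 immediate early genes, which respond to handling of the cells and acute signalling, 1 lay above and 3 below, with a median of 0.02, and DESeq2 called Fos (-1.59), Zfp36 (-0.91) and Klf6 (-0.76) lower. Their median was -0.31 for KO 2 and 0.23 for KO 3, against -0.46, 0.51 and -0.07 for WT 1, WT 2 and WT 3 each set against the other WT libraries, and the list's median log2 fold change was -0.46 with the trend removed, with 0 above (17.2% of all genes) and 4 below (18.6%) all WT values.

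**Figure D5:**
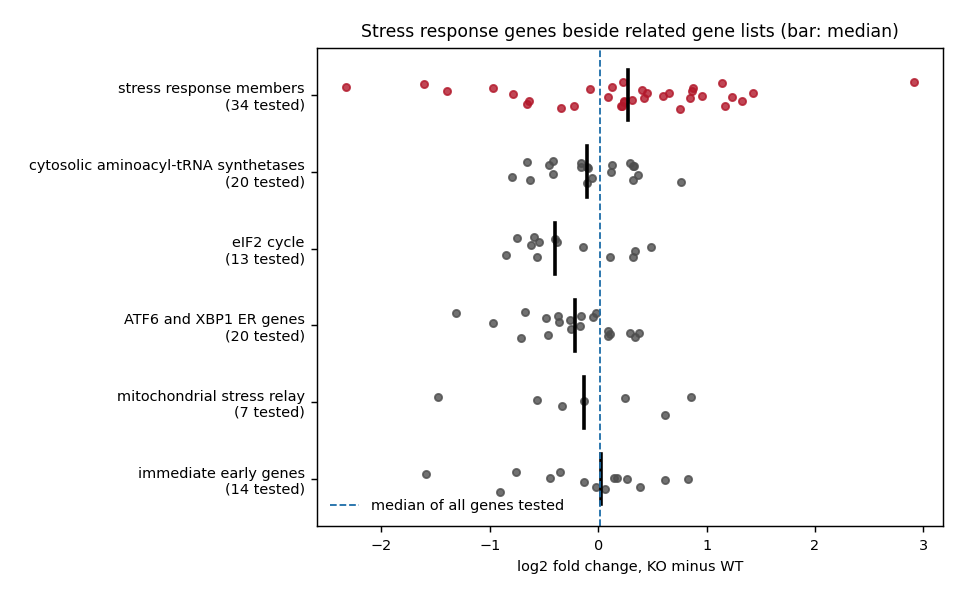
Points are the log2 fold changes of single tested genes, KO against WT, black bars are list medians and the dashed line is the median of all genes tested at 0.02; the vertical scatter within a list has no meaning. The stress response list has the highest median, 0.27, and the eIF2 cycle list the lowest, -0.40, with wide overlap between lists. With the length and GC trend removed, which is not drawn, the immediate early list was lowest at -0.46.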

How the data were processed

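Bulk RNA-seq of sorted mouse HSCs was measured in 3 WT and 2 KO libraries, grouped by genotype label. The authors deposited a normalized signal per gene and library, that is, reads per gene scaled by a factor of the library; the submitters' processing notes name STAR, featureCounts, DESeq2 and mm10, while annotation and strand setting are not given in the sources used here. All positive values were whole multiples of 1 step per library (100% within 0.0001), which gave back the read counts. The deposited columns of the authors' own comparison (log2 fold changes and p-values) were not used.

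limma 3.58.1 (lmFit, eBayes with trend, R 4.3.3) was run on log2(value + 1) over WT and KO together without covariates. It covered the 13661 genes that reached 10 in 2 or more of the 5 libraries, calling at a Benjamini-Hochberg adjusted p under 0.05. edgeR 4.0.16 and DESeq2 1.42.0 were run on the recovered reads as alternatives. Depth was 21915461, 21748781 and 22779536 reads in WT 1, WT 2 and WT 3, and 18308876 and 12539599 in KO 2 and KO 3. A count of 0 allows up to 3 reads, for counting error only. Every pair of libraries differed by more than sampling noise. Scripts were tested on simulated data.

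Length and GC content came from the longest GENCODE M21 transcript by symbol (13524 of 13661 genes). Promoter sequences were those of RefSeq on GRCm38.p6. Members and lists were chosen with earlier results of these data known. By rule, every library's value is given for the regulators, kinases, Eif2s1, Ppp1r15a, Eif4ebp1 and each member that a tool called or whose groups did not overlap, and at most 3 called genes per neighbouring list are named; other alternatives covered scaling, pseudocount, filter, weights, blocking and leaving out each library.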

Additional observations from a re-analysis of the deposited data

How the results depend on the processing

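Of the 34 tested genes, 26 kept the direction of their difference under each alternative that gave them a value (all 19 for 23 genes, fewer for Atf3, Cbs and Gdf15), and 8 did not. The count called was 0 except with DESeq2 (11) and without KO 2 (12 of 32, 7 higher and 5 lower, against 3560 of all genes or 26.6%), and over the removal of single libraries it ran from 0 to 12. The genes called without KO 2 were Atf5, Phgdh, Shmt2, Pycr1, Slc3a2, Sesn2 and Ddit4 as higher, and Eif2ak1, Eif2ak2, Eif2s1, Asns and Vldlr as lower; removing KO 2 leaves a lone KO library. The median log2 fold change, 0.27, was 0.22 with edgeR, 0.23 with a pseudocount of 10, and 0.24 to 0.38 without single libraries. The count above all WT values, 16, was 16 to 21 without single libraries (26.5% to 40.1% of all genes), and the count below, 6, was 6 to 10 without them (26.2% to 38.8% of all genes), with 21 of 32 above and 10 of 32 below without KO 2 against 40.1% and 38.8%. The count below was 3 with the length and GC trend removed and 3 with the median of each of 20 GC bins removed, an alternative chosen after seeing the data. Libraries share replicate numbers 2 and 3, but the labels do not say that a number marks a batch, so the numbers were not taken to pair them. Deviations of same-numbered libraries from their group means correlated at -0.06 and -0.18. The deviations of the 2 KO libraries are opposite by construction, so these correlations cannot exclude pairing. With the replicate number as a block, 0 were called, 9 had an unadjusted p under 0.05 and the median was 0.30. WT 1 has no KO library of its number, so the block fold changes equal those without WT 1 and are not a separate estimate.

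Signs reversed as follows, and except where an alternative leaves out a library the cause was not tested. Atf4 was -0.11 with GC bin medians removed, -0.18 with the trend removed and -0.16 with the replicate block and trend removed. In the same order, Ppp1r15a was -0.31, -0.33 and -0.28, and Slc38a2 was 0.017, 0.012 and 0.0093. Slc7a5 was -0.023 with the trend removed and -0.043 with the block and trend removed, Slc7a1 was -0.010 with the trend removed, and Aldh18a1 was -0.0011 with the block and trend removed. Cth was -0.52 with DESeq2, -0.51 with edgeR, -0.39 with the replicate block, -0.020 with the block and trend removed and from -0.39 (without WT 1) to 1.33 (without KO 3) without single libraries. Chac1 was 0.039 with array weights, 0.073 with the replicate block and from -0.59 (without KO 2) to 0.43 (without KO 3) without single libraries, with a positive sign also without WT 1 and without WT 2. Ppp1r15a ran from -0.21 (without KO 3) to 0.39 (without KO 2) and was -0.04 without WT 3, and Slc7a1 was -0.024 without KO 3. Low reads limit Atf3, Cbs, Cth, Gdf15, Stc2 and Aldh1l2. Syncrip stayed lower throughout, with log2 fold changes from -2.55 to -1.48, but limma no longer called it with the trend or GC bin medians removed, with array weights, with limma-voom, with all genes tested or without any single WT library.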
